A study of Mus musculus with 4 samples.

Results

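The heat shock response genes described here are 9 chaperone genes out of 33696 measured features: Hspa1a, Hspa1b, Dnajb1, Hsph1, Hspa8, Hsp90aa1, Hspd1, Hspe1 and Bag3. They form a set of known chaperone genes selected on their UMI levels across cell types and groups in earlier results of these same libraries, so their levels are a description and carry no test. Their unique molecular identifiers (UMIs, 1 per captured RNA molecule) were counted in single leukocytes, live CD45+ cells sorted from subcutaneous tumours of the mouse pancreatic cancer line KPC in male C57BL/6NHsd mice. There were 4 libraries, 1 per group: untreated mice, mice given the STING agonist ADU-S100 once into the tumour, mice given the agonist antibody 4H8 against the lymphotoxin-β receptor (anti-LTβR) repeatedly into the peritoneum, and mice given both (combination). The mice of all 4 groups were adults of 1 strain, all tumours came from 1 implanted line, and the tumours of a group were pooled before sorting, so a library is an average over animals and has no replicate among the libraries used here. The study made a further single-cell experiment, which was not analysed here. Tumours were collected 2 weeks after treatment began, days after the last antibody dose, so the libraries do not show the first hours after a dose. Every tumour was digested with Liberase under mechanical dissociation for an hour at body temperature, and none of these 4 libraries was made without that step. The kit is given as 5′ gene expression chemistry in 2 versions, 1 in the sample descriptions and another in the study's methods. Values in sets of 4 are given in the order untreated, ADU-S100, anti-LTβR and combination.

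Heat shock genes encode chaperones that hold, fold or hand over proteins. When unfolded protein accumulates, the transcription factor HSF1 binds repeats of the short element nGAAn in their promoters and the inducible genes are transcribed within minutes. Hspa1a and Hspa1b encode the stress-inducible Hsp70, Hspa8 its constitutive relative, Dnajb1 the J-domain partner that delivers clients to Hsp70, and Hsph1 and Bag3 nucleotide exchange factors that release them. Hsp90aa1 encodes the inducible cytosolic Hsp90, and Hspd1 and Hspe1 the 2 parts of the mitochondrial chaperonin. Because inducible members respond to heat, hypoxia, inflammation and handling alike, the immediate-early genes, another fast response known from digested tissue, are given beside them throughout.

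Once cells had passed limits on detected genes and mitochondrial share and likely doublets had been dropped, 7369, 13224, 13021 and 14390 leukocytes remained, with median depths over all kept cells of 4616, 3110, 3738 and 2200 UMIs. Pairs of libraries shared 34 to 83 cell barcodes. The cells fell into 33 clusters, made without the heat shock, chaperone and immediate-early genes, and clusters were named from marker genes as macrophage- and monocyte-like, neutrophil-like, dendritic cell (DC)-like, T-, NK-, B- and plasma-like, with 5 clusters unnamed. The unnamed ones include c14, which was led by genes such as Cd8a, Pdcd1 and Prf1, met all 8 T cell markers and is outside the T class because of markers of another class. They also include c9, with 152, 77, 519 and 881 cells, which was led by Retnla, Ear2 and Lyz1. It met all 9 macrophage markers and is outside the macrophage and monocyte class because of markers of another class. A further cluster of 155, 220, 202 and 277 cells showed 3 of 6 carcinoma markers and was led by Csmd1, Hmga2 and Kirrel3. It goes against the CD45 sort and was kept out of the leukocytes, as carcinoma-like cells. Levels are UMIs per 1000000 UMIs (CPM) summed over the cells of a class. All 95% intervals below cover counting error only and leave out the variation among animals, tumours and libraries, and no difference between groups could be tested.

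Promoters are shown first because the 2 inducible Hsp70 genes are near copies of each other there, and much of their transcript sequence is shared as well, which limits what their separate counts mean. The sequences are the bases before the transcription start in RefSeq, build GRCm38.p6, where 7 of the 9 members were found. Each is written 5′ to 3′ on the gene's strand in lower case, and capitals mark GAANNTTC or TTCNNGAA, facing pairs of the element that HSF1 binds, searched on both strands. The first pair is Hspa1a at chr17:34972157-34972406 (minus strand) and Hspa1b at chr17:34959239-34959488 (minus strand).
Hspa1a: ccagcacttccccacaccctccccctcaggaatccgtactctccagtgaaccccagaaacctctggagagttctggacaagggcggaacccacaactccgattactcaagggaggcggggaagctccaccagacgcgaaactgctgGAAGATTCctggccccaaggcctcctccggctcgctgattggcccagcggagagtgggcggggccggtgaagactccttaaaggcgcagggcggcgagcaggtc
Hspa1b: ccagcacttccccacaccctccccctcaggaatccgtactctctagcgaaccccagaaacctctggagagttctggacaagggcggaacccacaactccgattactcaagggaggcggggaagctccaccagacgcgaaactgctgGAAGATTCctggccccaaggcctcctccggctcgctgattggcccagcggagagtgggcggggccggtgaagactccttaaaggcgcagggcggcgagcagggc
They have 247 of 250 bases in common (98.8%) and differ by C44T, T47C and T249G, with the Hspa1a base first and positions counted from the 5′ end of the window. Each holds GAAGATTC 104 bases before the start. Of all windows of 50 bases in the Hspa1a transcript, 58.8% also occur in Hspa1b, and 62.3% the other way round, so reads may be divided between the 2 genes by the counting rather than by the cell. Their sum, called the Hspa1a/b sum, is therefore the main measure below. In GENCODE M21 on GRCm38 the genes themselves lie at chr17:34969190-34972156 and chr17:34956436-34959238.

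The promoters of Dnajb1 at chr8:83607925-83608174 (plus strand) and Bag3 at chr7:128523333-128523582 (plus strand) are printed next.
Dnajb1: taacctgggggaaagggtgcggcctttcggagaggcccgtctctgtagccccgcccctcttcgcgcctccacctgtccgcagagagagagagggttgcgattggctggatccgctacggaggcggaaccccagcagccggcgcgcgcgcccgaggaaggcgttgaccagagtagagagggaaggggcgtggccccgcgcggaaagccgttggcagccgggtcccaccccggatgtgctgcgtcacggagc
Bag3: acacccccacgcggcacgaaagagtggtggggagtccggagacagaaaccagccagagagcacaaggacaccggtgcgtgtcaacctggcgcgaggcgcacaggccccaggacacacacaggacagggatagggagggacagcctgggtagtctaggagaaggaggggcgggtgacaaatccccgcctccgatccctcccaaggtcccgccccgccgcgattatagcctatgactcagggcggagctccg
Neither window holds these letters. The Dnajb1 window overlaps the first exon of a noncoding transcript of its neighbour Tecr on the other strand. The Hsph1 promoter held TTCTCGAA 33 bases before its first start. Hspd1 and Hspe1 lie head to head, and upstream of Hspe1 stood 3 overlapping matches, TTCTAGAA, GAACCTTC and TTCCGGAA, 89, 84 and 79 bases before its start. Either motif was in 12.8% of all 32851 promoter windows of 250 bases, GAANNTTC in 6.69% and TTCNNGAA in 7.17%. A match is a description of letters and no measured binding site. Log2 ratios to untreated (ADU-S100, anti-LTβR, combination) over all leukocytes, each library given the same cluster makeup, were 0.06, -0.04 and 0.20 for Hsph1. They were 0.65, 0.99 and 0.91 for the Hspa1a/b sum, 0.41, 0.24 and 0.27 for Dnajb1 and 0.235, 0.29 and 0.31 for Bag3. Members with a match thus did not all differ more than Dnajb1 and Bag3, and a link between letters and levels was not tested.

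The Hspa1a/b sum was lowest in the untreated library in all 6 leukocyte classes of more than 50 cells in each library, although for B and plasma cells and for T cells that order depended on the processing, as given below. Over all leukocytes it was 63.4 (95% interval 61.1 to 65.8), 197 (193 to 200), 139 (136 to 142) and 126 CPM (123 to 129), from 2765, 13110, 8520 and 5646 UMIs. Neutrophil-like cells held the most, with 159 (134 to 187), 505 (492 to 517), 564 (530 to 600) and 397 CPM (366 to 430). In each library they stood above every other leukocyte class of more than 50 cells. Macrophages and monocytes followed with 74.4, 142, 175 and 155 CPM, and DCs with 52.2, 99.1, 94.4 and 135 CPM. These 2 classes overlapped in their range over the 4 libraries, as did most neighbours in the order. T cells held 27.0, 43.0, 52.2 and 30.6 CPM, B and plasma cells 5.26, 29.1, 16.5 and 49.8 CPM, and NK cells 2.06, 52.8, 23.6 and 29.5 CPM. The carcinoma-like cells were also lowest without treatment, at 55.2, 213, 122 and 199.9 CPM. Only 80 mast or basophil-like cells were found, with 0, 47, 4 and 0 UMIs, too few to give a level. The 693, 753, 1246 and 1567 unnamed leukocytes held 50.4, 64.0, 51.6 and 47.3 CPM, with untreated not the lowest, and of their 199 untreated UMIs 82 came from the 21 untreated cells of cluster c26.

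The order did not hold in every cluster within the classes. Plasmacytoid DC-like cells, marked by Siglech, held 26 UMIs untreated and 3, 1 and 1 with treatment, in 81, 62, 59 and 29 cells, so the untreated library was the highest there. It was also the highest in the T cell cluster c27, with 13, 0, 0 and 3 UMIs in 130, 34, 34 and 81 cells. The T cell cluster c7 (Lef1, Tcf7, S1pr1) held 34.8, 33.3, 61.5 and 11.9 CPM, with the combination the lowest. The dividing macrophage cluster c17 (Top2a, Birc5) held 63.3, 154, 34.1 and 67.1 CPM, with anti-LTβR the lowest. Mature DC-like cells, marked by Ccr7 and Fscn1, held 15.6, 98.7, 105 and 46.6 CPM. The cDC2-like cells held 65.9, 121, 103 and 179.7 CPM and the cDC1-like cells 61.3, 86.2, 73.9 and 119. Macrophage-like cells held 90.2, 225, 283 and 223 CPM, above the 39.4, 59.0, 72.0 and 77.2 of monocyte-like cells in every library.

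**Figure D1:**
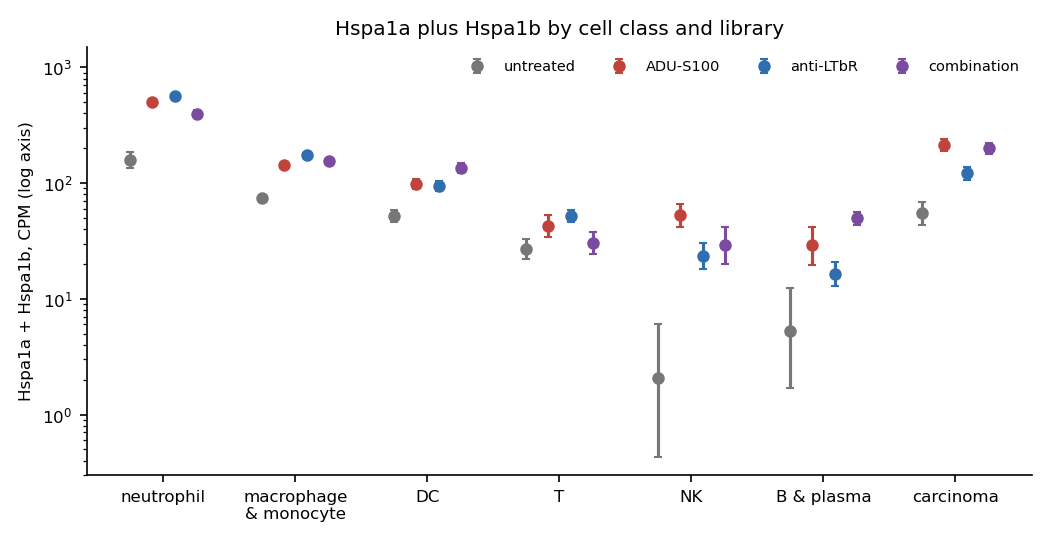
Level of Hspa1a plus Hspa1b in CPM (vertical axis, log scale) in each cell class (horizontal axis), 1 point per library with its 95% counting interval. The untreated points lie below the treated ones in all 7 classes, and neutrophil-like cells reach 564 CPM with anti-LTβR.

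On the log2 scale the Hspa1a/b sum of all leukocytes differed from untreated by 1.63 (interval 1.57 to 1.69) for ADU-S100, by 1.13 (interval 1.07 to 1.19) for anti-LTβR, and for the combination by 0.99 (interval 0.93 to 1.06). The 3 comparisons share the untreated library, so its level enters each of them. In macrophages and monocytes the log2 ratios were 0.94 (0.86 to 1.01), 1.23 (1.16 to 1.31) and 1.06 (0.98 to 1.14). In neutrophils they were 1.66 (1.43 to 1.91), 1.82 (1.57 to 2.09) and 1.32 (1.06 to 1.59), against an untreated sum of 146 UMIs, and in DCs 0.92 (0.69 to 1.16), 0.85 (0.63 to 1.08) and 1.37 (1.14 to 1.60). The DC ratios depended on the processing, ranging over the alternatives from 0.65 to 1.28, 0.35 to 1.25 and 0.33 to 1.48, with the low end of each where cells were named without clusters. In T cells the ratios were 0.67 (0.24 to 1.10), 0.94 (0.62 to 1.29) and 0.18 (-0.26 to 0.62), and the last interval spans 0. Over the alternatives the ADU-S100 ratio ran from 0.47 to 1.57, and that of the combination from -0.23 with the mean of per-cell CPM to 1.46 without doublet removal. These T cell ratios leave out cluster c14, which met all 8 T cell markers. It held 4.32, 0.706, 1.87 and 1.67% of leukocyte UMIs and 1.45, 0.183, 0.739 and 0.762% of the Hspa1a/b UMIs, untreated first. NK cells rest on 3 untreated UMIs, with ratios of 4.47 (3.08 to 6.99), 3.31 (1.90 to 5.83) and 3.64 (2.15 to 6.19). The alternatives put these NK ratios at 3.37 to 5.51, 2.23 to 4.53 and 2.52 to 4.44. B and plasma cells rest on 5 untreated UMIs, with 2.36 (1.08 to 4.19), 1.52 (0.36 to 3.31) and 3.11 (1.999 to 4.88). At 1000 UMIs per cell these became 0.14, -1.16 and 0.17, and with the mean of per-cell CPM 0.31, -0.60 and 2.43, so the direction for anti-LTβR turned. With anti-LTβR 1 cell held 40 of the 73 UMIs of B and plasma cells, and without the cell of most UMIs in each library the ratio was 0.68.

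Counted gene by gene, with genes of at least 200 UMIs over the libraries compared and 2-fold as the limit, few of the 9 members passed. Over all leukocytes Hspa1a and Hspa1b were past 2-fold with ADU-S100 and with anti-LTβR, and Hspa1a with the combination. With the same cluster makeup in every library, an alternative chosen after seeing the data, 0, 1 and 0 members passed, with Hspa1a at 0.69, 1.06 and 0.99 and Hspa1b at 0.58, 0.90 and 0.79. Of all genes tested, 12.9%, 2.48% and 3.52% were past 2-fold in either direction in these 3 comparisons. In macrophages and monocytes 0, 2 and 1 of 9 members passed, beside 5.09%, 1.49% and 1.59% of all genes. The median log2 ratio of the 9 members over all leukocytes was 0.12, 0.15 and 0.03, beside -0.38, -0.06 and -0.15 for all genes, and in macrophages and monocytes 0.22, 0.19 and 0.18. Just outside stood Hspa1a with ADU-S100 and Hspa1b with the combination, at log2 ratios of 0.94 and 1.00, the second a little under 2-fold. In neutrophils 6, 4 and 4 members had enough UMIs and Hspa1a and Hspa1b passed each time, beside 6.43%, 2.55% and 1.54% of genes. With the same cluster makeup Hspa1b was at 0.60, 1.14 and 0.75 there, so it passed with anti-LTβR alone. In DCs 1, 0 and 2 of 8 members passed, beside 1.63%, 0.76% and 1.84%. None did in T cells (beside 1.67%, 1.3% and 1.72%), NK cells (0.521%, 0.43% and 0.685%) or B and plasma cells (10.1%, 6.08% and 6.04%), where Hspa1a and Hspa1b themselves fell short of 200 UMIs, except Hspa1a in T cells with anti-LTβR.

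The combination held less of the Hspa1a/b sum than ADU-S100 alone over all leukocytes, with a log2 ratio of -0.64 (-0.69 to -0.60), and a little less than anti-LTβR alone, at -0.14 (-0.18 to -0.09). No member was past 2-fold in either comparison over all leukocytes, beside 7.58% and 1.6% of all genes. In macrophages and monocytes the same ratios were 0.12 (0.07 to 0.18) and -0.17 (-0.23 to -0.12), and in neutrophils -0.34 (-0.47 to -0.23) and -0.51 (-0.65 to -0.36). In DCs both were above 0, at 0.45 (0.24 to 0.65) and 0.52 (0.32 to 0.71). B and plasma cells held 49.8 CPM with the combination and 16.5 with anti-LTβR, a log2 ratio of 1.59 (1.21 to 1.99), and against ADU-S100 the ratio was 0.75 (0.21 to 1.38). Single cells held 55 of the 238 combination UMIs and 40 of the 73 anti-LTβR UMIs, so these intervals are too narrow. In B and plasma cells Hspa1a had a log2 ratio of 2.03 against anti-LTβR, from 170 and 38 UMIs. The share of all genes past 2-fold in that comparison is not given here, so this is not read as a result about Hspa1a.

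**Figure D2:**
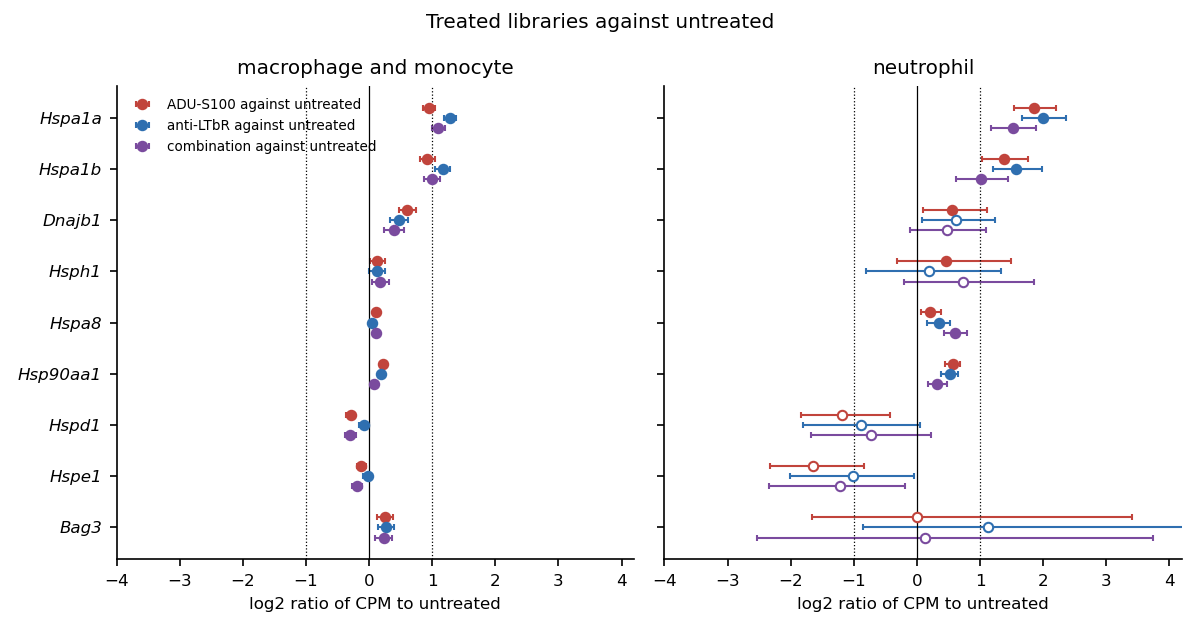
Log2 ratio of CPM to the untreated library for each member (rows) in macrophages and monocytes (left) and neutrophils (right), with 95% counting intervals. Dotted lines mark 2-fold and open points have under 200 UMIs. Hspa1a and Hspa1b stand to the right in both panels, while Hspd1 and Hspe1 lie below 0.

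The partners of Hsp70 differed less between libraries than Hspa1a/b did over all leukocytes and in macrophages and monocytes. Dnajb1 over all leukocytes was 27.1, 38.6, 30.8 and 29.6 CPM, and 21.5, 32.8, 29.9 and 28.1 CPM in macrophages and monocytes. There the untreated library was again the lowest, with log2 ratios of 0.61 (0.47 to 0.75), 0.48 (0.33 to 0.62) and 0.39 (0.23 to 0.55). Neutrophils held 38.1, 57.1, 59.4 and 53.3 CPM, the highest in their median of the leukocyte classes of more than 50 cells in each library, though T cells at 33.4, 55.3, 43.1 and 37.4 CPM overlapped them. The T cell ratio of Dnajb1 for ADU-S100, 0.73 (0.35 to 1.11), was close to the 0.67 of the Hspa1a/b sum. Dnajb1 stood apart in the mast or basophil-like cells, with 66, 24, 0 and 31 UMIs in 30, 18, 12 and 20 cells. In the untreated ones 11 of 30 cells had a UMI and 1 cell held 21 of the 66.

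Hsph1, the exchange factor of the Hsp110 family, had a different order of classes. Among leukocytes T cells were the highest, at 73.0, 86.5, 56.9 and 68.0 CPM, NK cells followed at 45.4, 60.02, 36.9 and 50.1, and neutrophils had the lowest median, at 13.1, 18.7, 15.3 and 22.4. Macrophages and monocytes held 31.2, 34.1, 34.0 and 35.3 CPM, so the libraries differed by at most 0.18 on the log2 scale (0.04 to 0.32, combination). In T cells anti-LTβR stood below untreated, at -0.36 (-0.60 to -0.12).

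Bag3, which also hands Hsp70 clients to autophagy, was highest among leukocytes in macrophages and monocytes, at 30.1, 35.9, 36.2 and 35.4 CPM. Its log2 ratios to untreated there were 0.25 (0.13 to 0.38), 0.27 (0.14 to 0.39) and 0.23 (0.10 to 0.37). Neutrophils held only 2, 33, 10 and 4 Bag3 UMIs, or 2.18, 2.69, 5.66 and 2.63 CPM, so the class with most Hspa1a/b had least Bag3. The carcinoma-like cells held 114, 122, 124 and 109.8 CPM, above every leukocyte class in every library.

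Hspa8, the constitutive member, was close to level. Over all leukocytes it was 1085, 1048, 1044 and 1093 CPM, and the log2 ratios were -0.05, -0.06 and 0.01. DCs and macrophages and monocytes shared the top of the order, with 1127 to 1338 and 1148 to 1239 CPM, and B and plasma cells were the lowest at 243 to 338. The largest ratio among the 6 classes was in neutrophils, where 385, 447, 489 and 585 CPM put the combination 0.60 above untreated (0.43 to 0.79).

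Among leukocytes Hsp90aa1 was highest in neutrophils, as Hspa1a/b was. They held 633, 937, 907 and 794 CPM, against 317, 369, 361 and 336 in macrophages and monocytes and 128 to 155 in B and plasma cells. The neutrophil log2 ratios were 0.56 (0.45 to 0.69), 0.52 (0.38 to 0.66) and 0.33 (0.18 to 0.47). Within the neutrophil cluster c1, described below, these became -0.05 (-0.18 to 0.09), 0.13 (-0.03 to 0.29) and 0.01 (-0.16 to 0.17), all with intervals that span 0.

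The mitochondrial chaperonin was lower in the treated libraries over all leukocytes, a difference that was small with the same cluster makeup. Hspd1 over all leukocytes was 97.7, 68.4, 90.4 and 80.7 CPM, with log2 ratios of -0.51 (-0.57 to -0.45), -0.11 (-0.17 to -0.05) and -0.28 (-0.34 to -0.21). Hspe1 was 104, 79.0, 102 and 92.1 CPM, with ratios of -0.40 (-0.46 to -0.34), -0.04 (-0.09 to 0.02) and -0.18 (-0.24 to -0.12). Both were lowest in neutrophils, Hspd1 at 10.2 to 22.9 CPM and Hspe1 at 7.11 to 21.8, and highest among leukocytes in NK and T cells for Hspd1 and in DCs and T cells for Hspe1, whose ranges overlapped in each case. With the same cluster makeup in every library the ratios were -0.13, 0.04 and -0.13 for Hspd1 and -0.03, 0.07 and -0.07 for Hspe1. Within classes the direction varied. NK cells held 102, 129, 107 and 124 CPM of Hspd1 and B and plasma cells 24.2, 37.2, 42.7 and 43.9, with untreated the lowest in both. In macrophages and monocytes the ADU-S100 ratios shrank to -0.29 (-0.36 to -0.22) and -0.13 (-0.20 to -0.06). For scale, the median log2 ratio of all genes tested was itself -0.38, -0.06 and -0.15 over all leukocytes and -0.21, -0.05 and -0.08 in macrophages and monocytes.

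**Figure D3:**
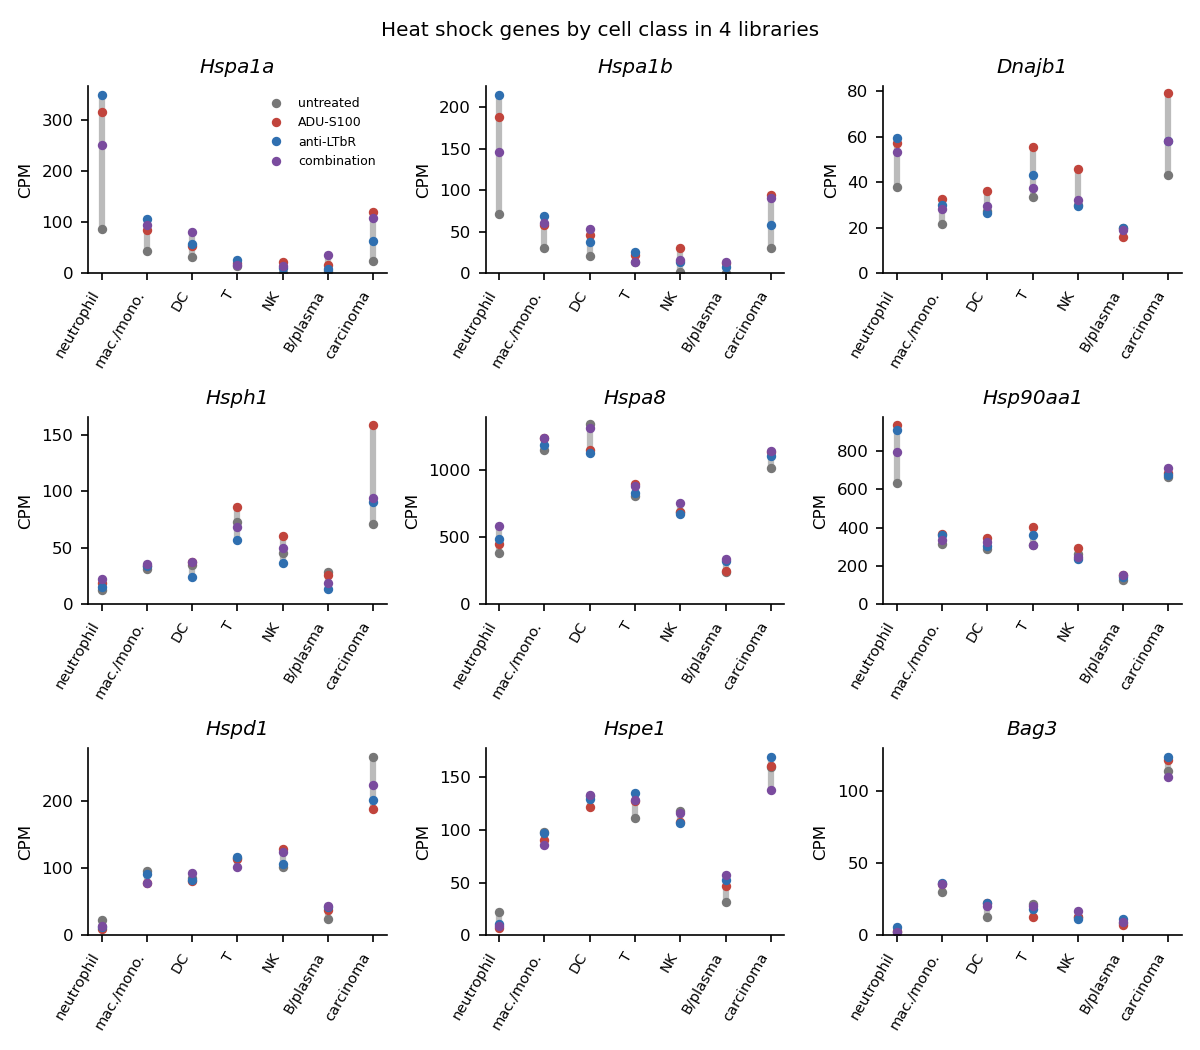
CPM (vertical axes, linear and starting at 0) of the 9 members in 7 cell classes (horizontal axes), 1 point per library and a grey bar over their range. Hspa1a, Hspa1b, Dnajb1 and Hsp90aa1 peak in neutrophils among the leukocyte classes, whereas Hsph1, Hspd1, Hspe1 and Bag3 have their lowest medians there.

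A large share of the Hspa1a/b UMIs was held by 2 clusters. Cluster c1 was neutrophil-like, led by Il36g, Hcar2 and S100a9, and cluster c6 was macrophage-like, led by Gpnmb, Adm, Mmp12 and Hmox1. Together they made up 6.85, 34.2, 9.55 and 8.83% of leukocytes but 46.1, 71.5, 59.2 and 53.2% of the Hspa1a/b UMIs. With ADU-S100, c1 alone was 27.8% of leukocytes, against 2.77% in the untreated library. Differences over all leukocytes therefore mix the level inside clusters with the number of cells in them.

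Inside c1 the Hspa1a/b sum was 372 (311 to 442), 699.9 (682 to 718), 1031 (967 to 1100) and 761 CPM (697 to 830), and inside c6 463 (437 to 491), 556 (538 to 575), 935 (907 to 964) and 901 CPM (866 to 937). The log2 ratios to untreated were 0.90, 1.46 and 1.03 in c1 and 0.26, 1.01 and 0.96 in c6. The other neutrophil cluster, c4 (Mmp9, Cxcr2), held 28.1, 78.3, 66.6 and 101 CPM, far below c1 in every library. Among macrophages, c3 (C1qa, Apoe, Vcam1) held 33.0, 96.2, 81.6 and 50.8 CPM. Of the monocyte clusters, c0 (Cxcl10, Cxcl11, Il6) held 60.2, 60.7, 98.2 and 118 CPM, and the interval for ADU-S100 spans 0 there, with a log2 ratio of 0.01 (-0.20 to 0.23). Cluster c2 (Chil3, Vcan) held 18.9, 62.7, 43.4 and 50.7 CPM. Over clusters with at least 50 cells and 50 UMIs, the sum was above untreated in 16 of 18 with ADU-S100, 18 of 19 with anti-LTβR and 15 of 17 with the combination, and past 2-fold in 8, 9 and 7.

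When every library was given the same cluster makeup, the sum over all leukocytes was 82.8, 129.5, 165 and 156 CPM. The log2 ratios became 0.65, 0.99 and 0.91, so the ADU-S100 ratio lost most, while the untreated library was still the lowest. The same change gave 0.58, 0.96 and 0.92 in macrophages and monocytes and 0.96, 1.46 and 1.11 in neutrophils.

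Dnajb1 in c6 was 36.8, 73.1, 76.1 and 68.4 CPM, with log2 ratios of 0.98 (0.66 to 1.33), 1.04 (0.71 to 1.40) and 0.89 (0.53 to 1.27), larger than in the whole class and, with ADU-S100, larger than the 0.26 of the Hspa1a/b sum in the same cluster. Hsph1 in c6 was 121, 108, 136 and 166 CPM, Bag3 57.8, 75.3, 79.8 and 84.4 and Hsp90aa1 692, 768, 857 and 886, each above its level in c3, c0 and c2 in the same library. Hspd1 in c6 was 109.5, 114, 111 and 124 CPM, close to level.

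**Figure D4:**
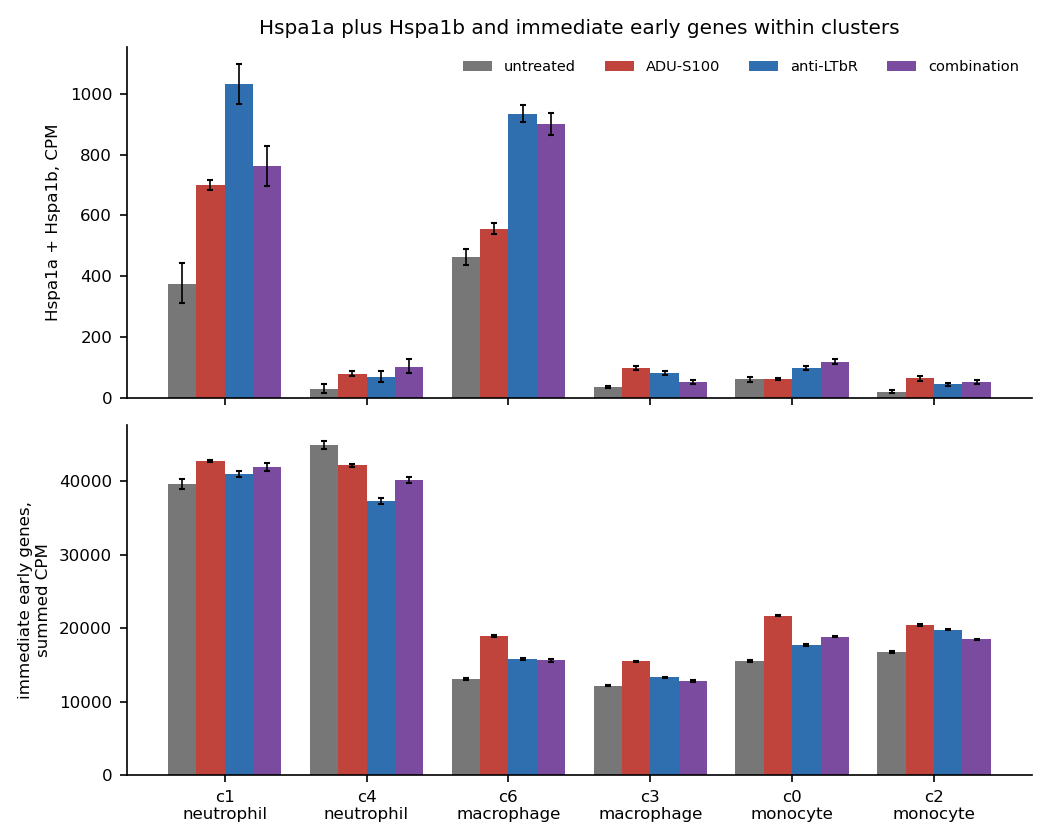
Upper panel, CPM of Hspa1a plus Hspa1b in 6 clusters (bars from 0, 1 per library, with 95% counting intervals). Lower panel, the summed immediate-early genes in the same clusters. In c1 and c6 the sum of Hspa1a plus Hspa1b is highest with anti-LTβR, while the immediate-early sum of c1 differs little between libraries.

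The immediate-early list, 25 genes such as Fos, Jun, Egr1, Atf3 and Nfkbia, also differed between libraries, but in another pattern. Summed over the list, all leukocytes held 11479, 21290.5, 13862 and 13997 CPM, macrophages and monocytes 12449, 18071, 15531 and 14948 and neutrophils 42883, 42572, 39232 and 40966. Its summed level over all leukocytes differed from untreated by 0.89 with ADU-S100, 0.27 with anti-LTβR and 0.29 with the combination on the log2 scale, and by 0.32, 0.16 and 0.18 with the same cluster makeup in every library. The median over its 24 genes tested was 0.70, 0.36 and 0.40, beside -0.38, -0.06 and -0.15 for all genes, and 7, 0 and 0 were past 2-fold, beside 12.9%, 2.48% and 3.52% of all genes. In macrophages and monocytes the sums differed by 0.54, 0.32 and 0.26, with 5, 0 and 0 of 24 genes past 2-fold, beside 5.09%, 1.49% and 1.59% of all genes. Nfkbia, the inhibitor of NF-κB, was 552 CPM untreated and 1659.8 with ADU-S100 there, and Gadd45b 119 and 302. In neutrophils the sums differed by -0.01, -0.13 and -0.07 while the Hspa1a/b ratios were 1.66, 1.82 and 1.32. In T cells they differed by 0.41, 0.11 and 0.06, in DCs by 0.24, 0.25 and 0.30 and in NK cells by 0.36, 0.29 and 0.66. In c1 they differed by 0.11, 0.05 and 0.08, and in c6 by 0.53, 0.27 and 0.26. Neutrophil Fos was highest in the untreated library, at 2307, 1683, 1574 and 1611 CPM, and Jun lowest, at 773, 1033, 1197 and 1119.5. The part of tissue handling in the heat shock values was not tested.

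Few cells carried the Hspa1a/b UMIs. A UMI of either gene was seen in 8.13, 13.5, 8.66 and 8.53% of leukocytes at their own depth, and 50% of the UMIs lay in 55, 156, 82 and 110 cells. The cells with a UMI held 4.62, 7.34, 7.56 and 4.60 of them on average. In untreated neutrophils 24 of 490 cells had a UMI, 4 cells held 50% of them and 1 cell held 31 of the 146 UMIs, or 21.2%. Without the cell of most UMIs in each class and library, the neutrophil ratio to untreated for ADU-S100 was 1.98 in place of 1.66. In c6 the share with a UMI was alike in the libraries, at 37.5, 35.5, 35.5 and 36.3%, while UMIs per such cell were 10.1, 11.7, 16.5 and 9.83. The depths of c6 cells differed, with medians of 7250, 6729, 5336 and 3143 UMIs, and at 1000 UMIs per cell the shares were 21.1, 17.9, 24.1 and 25.7%. UMIs of 1 cell are not independent, so the counting intervals above are too narrow.

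At 1000 UMIs per cell, macrophages and monocytes with an Hspa1a/b UMI more often held a UMI of the other heat shock genes. Cells without one are the comparison within the same library. Hsph1 was found in 16.1, 16.1, 20.2 and 16.5% of cells with Hspa1a/b and in 1.96, 1.97, 1.30 and 1.81% of those without. For Bag3 the shares were 9.40, 9.003, 11.5 and 9.85% against 2.68, 3.46, 2.70 and 2.49%. Dnajb1 was in 2.01, 6.75, 9.51 and 7.64% against 1.48, 2.81, 2.33 and 2.16%, a gap that was small in the untreated library. For Hsp90aa1 the shares were 48.3, 55.9, 52.4 and 51.0% against 19.5, 21.9, 21.7 and 20.05%. Hspa8, Hspd1 and Hspe1 were also more frequent in cells with Hspa1a/b in all 4 libraries.

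The immediate-early genes differed among themselves. Jun was in 40.3, 43.1, 49.6 and 51.0% of macrophages and monocytes with Hspa1a/b and 24.9, 24.1, 31.2 and 28.0% of those without. Atf3 was also more frequent in cells with it in all 4 libraries, at 44.3, 55.6, 50.4 and 50.2% against 42.1, 35.4, 42.1 and 39.6%. Egr1 was in 10.1, 35.0, 19.3 and 19.0% against 11.9, 21.5, 18.2 and 17.9%, with a wide gap under ADU-S100 alone. For Fos the shares were 53.0, 64.0, 65.1 and 58.1% against 59.3, 65.6, 63.4 and 64.4%, so its direction varied, as that of Egr1 did. Cells with Hspa1a/b held 13, 20.7, 17.99 and 16.3 immediate-early UMIs of 1000, and the others 12.2, 17.3, 15.5 and 14.9, so the sum was higher in cells with Hspa1a/b in every library. Inside c6 the Hsph1 shares were 27.0, 25.2, 32.5 and 32.1% against 4.26, 3.13, 2.92 and 3.97%, and Dnajb1 was in 3.17, 8.84, 16.6 and 13.9% against 2.98, 5.36, 4.48 and 5.65%, nearly equal in the untreated library. Egr1 was less frequent in c6 cells with Hspa1a/b in all 4 libraries, at 6.35, 34.7, 22.1 and 19.4% against 14.0, 39.3, 24.8 and 24.3%, so the ADU-S100 gap of the class did not hold inside c6. The immediate-early UMIs of c6 were 13.4, 20.7, 19.5 and 17.1 against 13.6, 18.7, 15.9 and 15.7. In c1 with ADU-S100, 452 cells had an Hspa1a/b UMI, and Hsp90aa1 was in 69.2% of them against 32.9% of the rest, Hsph1 in 6.42% against 0.718%, and Jun in 69.7% against 48.2%. The immediate-early UMIs per cell of c1 were 39.6 against 42.0 with ADU-S100, 44.8 against 41.3 with anti-LTβR and 43.9 against 44.3 with the combination, so they did not run 1 way.

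**Figure D5:**
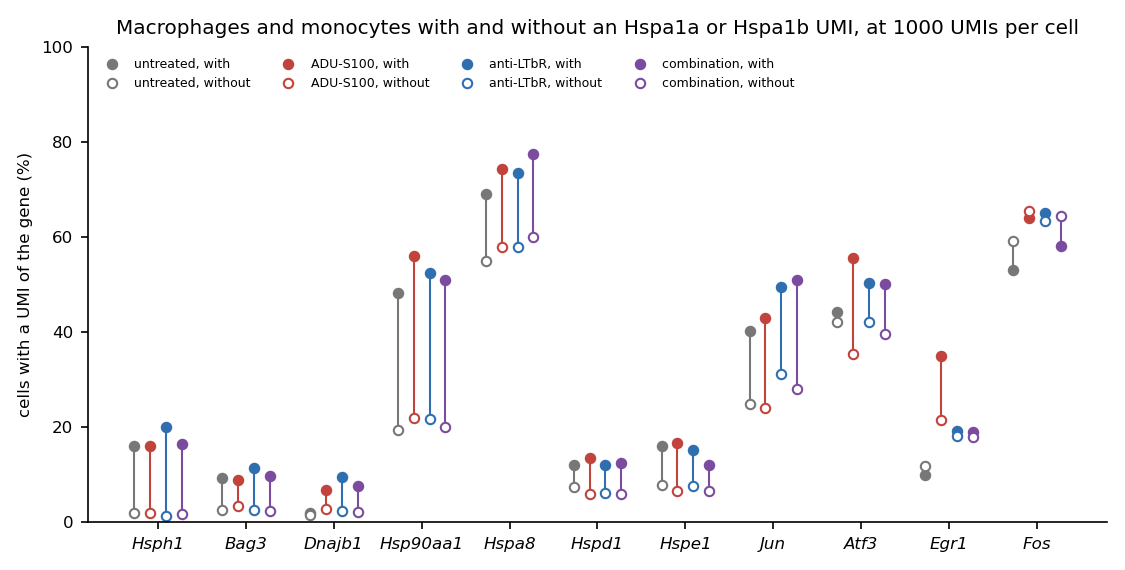
Share of macrophages and monocytes with a UMI of each gene (vertical axis, %), at 1000 UMIs per cell, in cells with (filled) and without (open) a UMI of Hspa1a or Hspa1b, for the 4 libraries. Filled points lie above open ones in every library for Hsph1, Bag3, Hsp90aa1, Jun and Atf3, but not for Fos and Egr1.

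Other genes of the pathway were counted in lists, to be read beside the 12.9%, 2.48% and 3.52% of all genes past 2-fold over all leukocytes. Of 14 further Hsp70 partners, 1 was past 2-fold over all leukocytes, Hspa4l of the Hsp110 family, at 55.1 CPM untreated and 118 with ADU-S100. That gene is high in neutrophils, at 348, 280, 318 and 252 CPM, where it was lower in treated libraries. None of 9 Hsp90 partners, 8 subunits of the cytosolic chaperonin TRiC or 3 heat shock factors was past 2-fold over all leukocytes in any of the 3 comparisons with untreated. The same held for 5 mitochondrial chaperones. The medians of the Hsp90 partners, TRiC and the heat shock factors with ADU-S100 were -0.47, -0.43 and -0.55, beside -0.38 for all genes. Hsf1 itself was 21.3, 13.7, 20.2 and 20.5 CPM. Of 5 small heat shock and collagen chaperones 2 had enough UMIs over all leukocytes. Hspb1, past 2-fold with the combination, was 2.82 CPM untreated and 7.22 with the combination there. Hspb1 in macrophages and monocytes was 3.89, 5.52, 7.14 and 10.3 CPM, and the combination stood 1.41 above untreated on the log2 scale (1.08 to 1.75). The carcinoma-like cells held 466, 504, 335 and 324 CPM of Hspb1, and RNA from those cells in the droplets was not tested as a source. Of the 11 genes of the endoplasmic reticulum stress list, 0 were past 2-fold in macrophages and monocytes and 1 over all leukocytes with ADU-S100. That 1 was Ddit3, a transcription factor of the unfolded protein response, at 18.6 CPM untreated and 51.6 with ADU-S100, and at 102, 196, 190 and 157 CPM in neutrophils.

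Over 108 sums of a cluster in a library, with at least 50 cells each, genes among the 10 whose level followed the Hspa1a/b sum most closely, of 10126 ranked, were Plk2 (r = 0.63), Zfand2a (0.62), Atp6v1a (0.61), Adam8 (0.60), Egr1 (0.59), Atf4 (0.59), Sqstm1 (0.59), Card19 (0.59) and Atp6v1b2 (0.58). Of the other members Hsp90aa1 came nearest, at 0.56 and rank 24, followed by Dnajb1 at 0.35, Hspa8 at 0.30, Hsph1 at 0.15 and Bag3 at 0.10, and Hspe1 and Hspd1 were at 0.02 and -0.01. Fos and Jun stood at 0.44 and Hsf1 at -0.49, the last a level of RNA and no measure of HSF1 binding. Among the members Hspd1 and Hspe1, which share their promoter stretch, ran together at 0.91, and Hspa1a and Hspa1b at 0.82. The points share libraries, depth and clusters, so these values describe the data and carry no p.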

How the data were processed

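Live CD45+ cells from pooled KPC tumours of 4 groups were profiled as 1 library per group. The deposited files hold whole UMI counts per gene and cell, without normalization. Per the file headers they were made with Cell Ranger 8.0.1, whereas the sample descriptions name version 7.1.0 and the build mm10, and the cause of the difference was not tested. The 4 files held 8730, 15404, 14634 and 16322 cells (untreated, ADU-S100, anti-LTβR, combination).

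Cells with 300 to 5000 genes and at most 6% mitochondrial UMIs were kept. Doublets were scored with Scrublet in scanpy 1.11.5, and since its automatic threshold marked 0, 0, 1 and 0 cells, the top scores were removed at 0.4% per 1000 cells (305, 949, 857 and 1066 cells). Leiden clustering (leidenalg 0.10.2, igraph 0.11.9) used 2000 variable genes, 30 components, 20 neighbours and resolution 1, without heat shock, chaperone or immediate-early genes. A cluster took a name when at least 3 markers were 2-fold above the median cluster and in at least 10% of its cells. It stayed unnamed where its top 10 genes held more markers of another class, where at least 70% of another class's markers also met the limits (T and NK not counted against each other), or where its depth was low and its top 10 genes held no marker of its own. These naming limits were chosen once the data had been looked at. The members and lists were chosen with earlier results of these data known.

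UMIs were summed per class and library and divided by the total to give CPM, with exact Poisson intervals. Log2 ratios had 0.5 UMI added, with exact binomial intervals (scipy 1.17.1). Genes with 200 UMIs over the 2 libraries were compared, and a gene past 2-fold counted as called. With 1 library per group no test was possible and no p-value is given. Intervals cover counting error only at 95%. Shares were compared after thinning to 1000 UMIs per cell, leaving out shallower cells. The named genes are the 9 members, the listed pathway and immediate-early genes, and the 10 genes most like the Hspa1a/b sum, ranked among genes of at least 1000 UMIs. Of these, 1 gene is not reported here. Genes outside these, such as those leading a cluster, were named after their values were seen. The procedure was tested on simulated data. Alternatives covered doublets, centring, cell naming, clustering, depth, the UMI minimum, cluster makeup and the cell with most UMIs.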

Additional observations from a re-analysis of the deposited data

Results flagged for a closer look

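Cells over the mitochondrial limit of 6% were left out of every comparison above, and they held Hspa1a/b UMIs too. In the 438 untreated cells of this kind the sum was 19.2 CPM, a level made up of few UMIs in shallow cells. It was 212 CPM in 706 cells with ADU-S100, 186 CPM in 383 cells with anti-LTβR and 283 CPM in 531 cells with the combination, each above the untreated value. The median depths of these cells were 1050, 1457, 1045 and 880 UMIs, and they were not assigned to cell classes, so their makeup was not tested.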

How the results depend on the processing

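Values below are log2 ratios of the Hspa1a/b sum to untreated, in the order ADU-S100, anti-LTβR and combination where 3 stand together, and counts of members past 2-fold. Of 255 recomputed ratios of the sum, 252 had the sign of the reported value, the others being 2 of B and plasma cells with anti-LTβR and 1 of T cells with the combination, and 51 moved beyond its counting interval. Of 999 ratios of single members 957 had the same sign. Centred on the median of all genes, all leukocytes gave 2.01, 1.19 and 1.14, with 2 members for the combination, and macrophages and monocytes 1.14 with ADU-S100 and 1.14 with the combination, with 2 members each. With cells named without clusters, macrophages and monocytes gave 0.96 (1 member) with anti-LTβR and 0.80 (0 members) with the combination, and neutrophils 1.33, 1.48 and 0.95, the last with 0 members. At 1000 UMIs per cell all leukocytes gave 2.25, 1.34 and 1.07, macrophages and monocytes 0.81 (1 member) and neutrophils 2.02 with ADU-S100, and neutrophils 0 members with the combination. With the mean of per-cell CPM all leukocytes gave 2.20, 1.37 and 1.18, macrophages and monocytes 0.86 and 1.11, and neutrophils 2.01 and 2.34, for ADU-S100 and anti-LTβR. With a minimum of 50 UMIs, neutrophils had 4 members past 2-fold with ADU-S100, Hspa1a and Hspa1b higher and Hspd1 and Hspe1 lower. The share of all genes past 2-fold at that minimum is not given here. Hspd1 and Hspe1 were low in neutrophils, at most 22.9 and 21.8 CPM in any library. With the combination in macrophages and monocytes 2 members passed without doublet removal, at resolution 2, without clusters low in ribosomal protein UMIs and without the cell of most UMIs, and 0 passed, at 0.94, with stress genes left in the clustering. Without the cell of most UMIs in each class, ADU-S100 gave 1.70 in all leukocytes and 1.98 in neutrophils. With equal cluster makeup all leukocytes gave 0.65, 0.99 and 0.91 with 0, 1 and 0 members, macrophages and monocytes 0.58, 0.96 and 0.92 with 1 member for anti-LTβR and 0 for the combination, and neutrophils 0.96 (1 member) and 1.46 with the single agents and 1 member with the combination. The alternatives on makeup, ribosomal protein and the top cell were chosen after seeing the data. Spearman in place of Pearson correlation shared 3 of 10 genes. The cause of these moves was not tested. No paired analysis was possible because each group has 1 library. Rare classes were limited by depth, down to 3 untreated UMIs in NK cells.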

Other observations

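Cells over 5000 genes, also left out, held 64.0, 109, 94.9 and 73.5 CPM of the Hspa1a/b sum in the order untreated, ADU-S100, anti-LTβR and combination. Cells removed as doublets held 74.0, 240, 129 and 139 CPM. In both kinds the untreated library was the lowest.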
